A study of Mus musculus with 8 samples.

Results

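Cortactin (Cttn), zyxin (Zyx), the junctional adhesion molecule F11r and the tight junction protein Marveld3 were followed in mammary tumours of mice given SKI-606 or vehicle. The 4 genes were chosen by name, as genes of Src-linked adhesion and of cell junctions, with their differences between the groups already known, so those differences are given as a description without a test. All probes whose identifier held the zero-padded Entrez Gene ID of one of these genes were taken, which gave 7 of the 24611 probes on the array (4 of the 4137 genes named among kept probes): 3 for Cttn (gene ID 13043), 1 for Zyx (22793), 1 for F11r (16456) and 2 for Marveld3 (73608). SKI-606 (bosutinib) blocks tyrosine kinases of the Src and Abl families.

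RNA came from mammary tissue of tumour-bearing female FVB/N-Tg(MMTV-PyVT)634Mul/J mice (the MMTV-PyVmT model), in which the mouse mammary tumour virus promoter drives the polyoma middle T antigen mainly in mammary epithelium, and both groups carried this transgene. Of the 8 arrays, 4 carried RNA from mice gavaged with SKI-606 at 100 mg/kg, formulated in methocellulose and Tween 80, and 4 from the vehicle group. Age and length of treatment were not used here. The Illumina arrays had 11837 to 12578 probes detected and a mean signal of 300.3 to 419.7 per array. The sample on each array is called a tumour here, although the labels do not show that the samples came from separate tumours. The protocol speaks of RNA from each mouse, but no label ties an array to an animal, so every error and p below describes the variation among these 8 arrays, part of which may be technical; their small number limits the precision. One label of SKI-606 replicate 2, its source name, speaks of a human islet cell culture, whereas its title, tissue and strain are those of the other tumours. It was analysed under its title, and where leaving it out moved a value of the 4 genes or a list median by over 1.5 times, that value is given too. All arrays bore 1 chip identifier, with SKI-606 on the leading positions and vehicle on the trailing ones; chip position cannot be told apart from treatment. The luminal keratin probes Krt8 and Krt18 were detected on every array (12.98 ± 0.34 and 12.18 ± 0.61 in SKI-606, 13.08 ± 0.12 and 12.19 ± 0.27 in vehicle tumours; normalized log2 signal, SD, n = 4).

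Cortactin binds actin filaments, stabilises the branches made by the Arp2/3 complex, and is a well known substrate of Src in lamellipodia and invadopodia. Zyxin is a LIM domain protein of focal adhesions and stress fibres that recruits Ena/VASP proteins. F11r (JAM-A) is an immunoglobulin family adhesion molecule of tight junctions that is also carried by endothelium, platelets and leukocytes, and Marveld3 is a membrane-spanning tight junction protein of the occludin family. Polyoma middle T antigen is known to bind and activate Src family kinases.

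Promoter windows of Zyx and F11r, the 2 of the 4 genes with an entry in the RefSeq table used here (GRCm38.p6), are shown because these genes lay on opposite sides of the comparison below. Each window runs from 250 bases before to 50 bases after a transcript start, on the plus strand, at chr6:42349578-42349877 for Zyx and chr1:171437311-171437610 for F11r. The Zyx gene is annotated from position 42349511, so its whole window lies inside the gene, at a start downstream of the gene's first base. The F11r gene is annotated from 171437561, the start used for its window. Capitals mark matches, on either strand, to TGANTCA (the core of the AP-1 motif), CACCTG (an E-box that Snail and Zeb factors bind) and CCAAT.
Zyx: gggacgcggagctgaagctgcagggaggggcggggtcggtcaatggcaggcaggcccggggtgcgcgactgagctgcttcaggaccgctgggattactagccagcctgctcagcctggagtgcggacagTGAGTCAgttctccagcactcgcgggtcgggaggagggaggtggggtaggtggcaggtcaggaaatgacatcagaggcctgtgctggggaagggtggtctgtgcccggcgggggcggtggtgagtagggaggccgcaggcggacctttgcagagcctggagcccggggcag
F11r: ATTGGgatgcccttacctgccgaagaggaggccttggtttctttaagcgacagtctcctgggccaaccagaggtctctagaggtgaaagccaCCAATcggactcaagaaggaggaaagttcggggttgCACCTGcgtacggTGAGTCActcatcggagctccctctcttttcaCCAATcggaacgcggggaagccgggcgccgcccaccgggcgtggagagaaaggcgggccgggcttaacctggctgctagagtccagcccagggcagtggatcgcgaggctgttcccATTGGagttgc
Both windows held 1 TGANTCA match, beginning 121 bases before the transcript start used for Zyx and 109 bases before that used for F11r. Of 27025 promoter windows of the same length, 7.93% held this motif. F11r held 1 CACCTG match (in 5413 of all windows) and 4 CCAAT matches (in 37.9%), and Zyx held 0 of either. A serum response element was found in neither window, against 1.57% of all windows. No matches overlapped one another, and a match is a description of letters, not of a bound site.

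In SKI-606 tumours the probes of the actin-linked pair, Cttn and Zyx, read lower than in vehicle tumours, by about 1.2-fold for Zyx and for both Cttn probes that were detected on every array. F11r and the brighter Marveld3 probe read higher by a similar factor, but their groups overlapped, and the dimmer Marveld3 probe lay on the other side. Values are background-corrected, quantile-normalized log2 signals, and differences are SKI-606 minus vehicle. The size for Cttn probe B, a dim probe, depended on the processing, from -0.50 without background correction to -0.10 with arrays scaled to the same median. Over all 12281 kept probes (detected at p under 0.05 on 4 or more of the 8 arrays) limma called 1 probe at an adjusted p under 0.05, or 0.00814%, none of them a probe of these genes, and the 2 groups did not overlap for 11.2% of kept probes (3.76% higher and 7.42% lower with SKI-606). The groups did not overlap for 3 of the 7 probes, all lower with SKI-606, of which Cttn probe C passed the detection filter through the vehicle arrays alone. Since the genes were chosen on this comparison, nothing is read from that count. RNA of whole tumours was measured, so fewer cells of a type and less RNA per cell cannot be told apart.

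**Figure D1:**
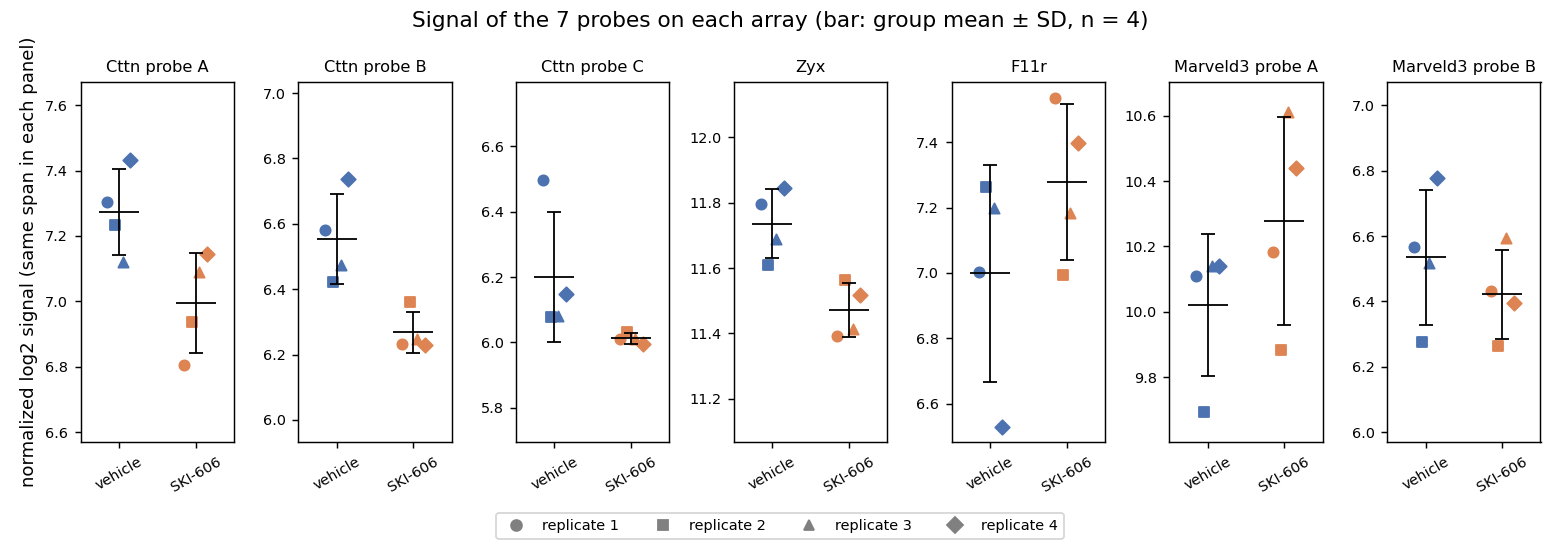
Normalized log2 signal of the 7 probes (vertical axis, each panel spanning the same range) on the 4 vehicle and 4 SKI-606 arrays, with group mean ± SD. Zyx, Cttn probe B and Cttn probe C have SKI-606 points that all lie below the vehicle points, while the F11r and Marveld3 points overlap between groups.

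The brightest Cttn probe (probe A, scl013043.1_15-S) read 6.81, 6.94, 7.09 and 7.15 in SKI-606 replicates 1 to 4, and 7.30, 7.23, 7.12 and 7.43 in vehicle replicates 1 to 4. The groups met at one point only, where SKI-606 replicate 4 lay just above vehicle replicate 3. The difference was -0.28 ± 0.10 (SE), a 1.21-fold lower signal. The second probe (probe B, scl013043.14_0-S) read 6.23, 6.36, 6.25 and 6.23 with SKI-606 and 6.58, 6.42, 6.47 and 6.74 with vehicle. Every SKI-606 value lay below every vehicle value, the nearest being the replicate 2 arrays of both groups. Its difference was -0.29 ± 0.08, or 1.22-fold lower.

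The third Cttn probe (probe C, scl0013043.1_48-S) was near background. It was detected on 4 of 4 vehicle arrays and 0 of 4 SKI-606 arrays, so it entered the kept set through the vehicle group alone and had to differ. Its raw signal was 109.9 in vehicle replicate 1 and 54.4 to 60.0 in the other vehicle tumours, against 41.2 to 48.6 with SKI-606. The measured means were 6.20 ± 0.20 with vehicle and 6.01 ± 0.02 with SKI-606 (SD, n = 4). Set against the dimmest detected probes of the SKI-606 arrays, the vehicle mean stood 1.10-fold above, or 1.02-fold without vehicle replicate 1. No vehicle excess is read from this, since the filter fixed its direction, and with arrays scaled to the same median the difference was 0.06. The difference of -0.19 shrank to -0.09 without vehicle replicate 1.

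Zyx was bright, above 96.3% of kept probes. It read 11.39, 11.56, 11.41 and 11.52 in SKI-606 replicates 1 to 4 and 11.80, 11.61, 11.69 and 11.84 in vehicle replicates 1 to 4. All 4 SKI-606 tumours lay below all 4 vehicle tumours, again with the replicate 2 arrays closest. The difference was -0.26 ± 0.07, or 1.20-fold lower, and ran from -0.31 to -0.23 when each array was left out in turn. On the raw scale the groups did overlap, at 2101 to 3165 against 3042 to 3808. There vehicle replicate 4 (3042), on an array with a mean signal of 313.0, lay below SKI-606 replicates 2 and 4 (3155 and 3165). The lowest raw value, of SKI-606 replicate 1, came from the array with the lowest mean signal (300.3). Differences of this size were common: 27.0% of kept probes differed by more than Zyx, and 25.1% and 24.3% by more than Cttn probes A and B. The spread of Zyx within groups was narrow, and 22.8% of kept probes had a smaller SD.

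F11r read 7.54, 6.99, 7.18 and 7.40 in SKI-606 replicates 1 to 4 and 7.0, 7.26, 7.20 and 6.53 in vehicle replicates 1 to 4. The groups overlapped widely, with SKI-606 replicates 2 and 3 inside the vehicle range and vehicle replicate 4 far below the rest. The difference was 0.28 ± 0.19, and 0.12 ± 0.14 without vehicle replicate 4, so its size rested largely on that array. Without SKI-606 replicate 2 it was 0.37. Vehicle replicate 4 was the lowest vehicle tumour for F11r and the highest for Zyx, for Cttn probes A and B and for Marveld3 probe B. On that array the mean signal was 313.0, against 388.3 to 419.7 on the other vehicle arrays, and the mean of 8 fibroblast and matrix genes lay 0.51 below the vehicle mean; their part in the result was not tested.

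The brighter Marveld3 probe (probe A, scl0073608.1_25-S) read 10.18, 9.88, 10.61 and 10.44 with SKI-606 and 10.11, 9.69, 10.14 and 10.14 with vehicle. SKI-606 replicates 3 and 4 lay above the vehicle tumours, replicate 1 just above them and replicate 2 inside their range. The difference was 0.26 ± 0.18, falling to 0.15 without SKI-606 replicate 3 and likewise without vehicle replicate 2, and rising to 0.39 without SKI-606 replicate 2.

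The dimmer Marveld3 probe (probe B, scl073608.2_56-S) read 6.43, 6.26, 6.60 and 6.40 with SKI-606 and 6.57, 6.28, 6.52 and 6.78 with vehicle. It differed by -0.11 ± 0.12, so the 2 probes of this gene did not share a direction, and their mean differed by 0.07. Without SKI-606 replicate 2 the dimmer probe differed by -0.06, and without vehicle replicate 4 by -0.03. Within the groups they ranked the arrays alike at the ends: replicate 3 was highest and replicate 2 lowest of the SKI-606 tumours on both, and replicate 2 was lowest of the vehicle tumours on both. The mean of 4 myoepithelial and basal markers was highest on these replicate 2 arrays, at 9.31 with SKI-606 and 9.09 with vehicle against 8.25 to 8.71 on the other arrays. That mean mainly followed Krt17, named after its values were seen, which ran from 7.33 to 11.63 with SKI-606 and from 8.67 to 11.36 with vehicle. The SD of Krt17 was 1.92 and 1.25, against 0.25 and 0.33 for Mylk, the next most variable. The part of this mean in the Marveld3 values was not tested. Probes of opposite sign were frequent on this array, in 147 of the 452 named genes with more than 1 kept probe (32.5%). Of the Cttn probes, A and B, the pair detected on every array, lay on the same side.

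**Figure D2:**
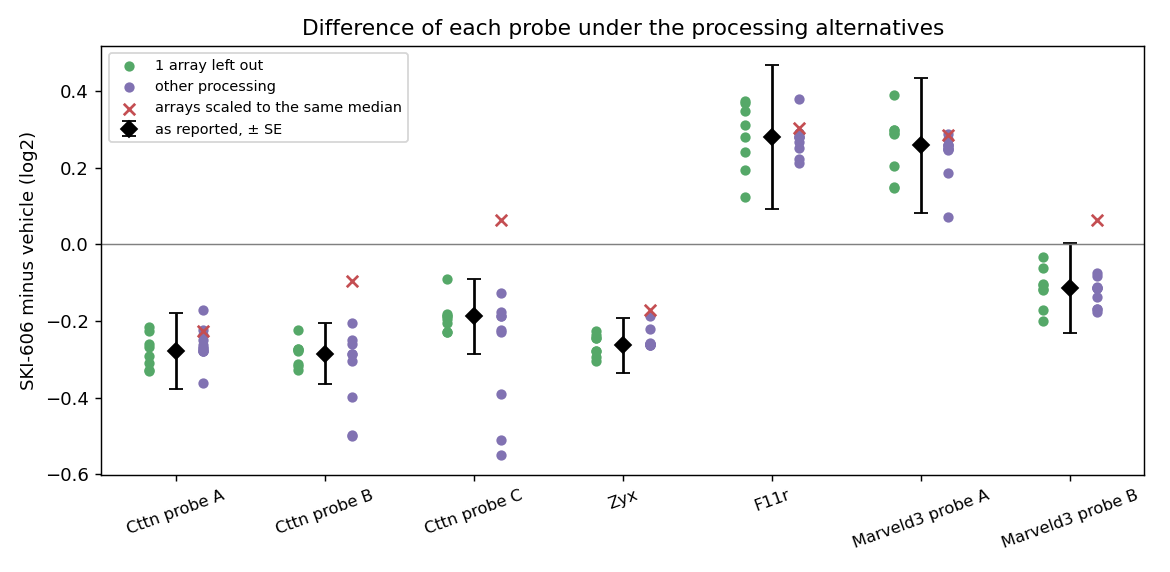
Difference between SKI-606 and vehicle (log2, vertical axis) for each of the 7 probes as reported with its SE (diamonds), with 1 array left out (green), under other processing (purple) and with arrays scaled to the same median (crosses). Cttn probes A and B and Zyx stay below 0 and F11r and Marveld3 probe A above 0 in all of these, while Cttn probe C and Marveld3 probe B turn positive under median scaling.

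The sign of 2 of the 7 probes, and the size order of the others, depended on the scale. Arrays scaled to the same median moved the median difference of all kept probes from -0.01 to 0.14, and on that scale Cttn probe C stood at 0.06 and Marveld3 probe B at 0.06, with Cttn probe A at -0.23, Zyx at -0.17 and Cttn probe B at -0.10. Relative to the median of all probes they stood at -0.08 and -0.07, Zyx at -0.31, Cttn probes A and B at -0.36 and -0.23, F11r at 0.17 and Marveld3 probe A at 0.15. Without background correction the difference of Cttn probe B was larger, at -0.50, and in the authors' deposited values it was also -0.50, while Zyx stayed at -0.26 in both.

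For the pathways around these genes, 5 lists were drawn up: tight junctions, other junctions, focal adhesions, Src kinases with their substrates, and the branched actin machinery that cortactin serves. Of their 292 genes, 92 were tested, each by its brightest kept probe, and 45 were higher and 47 lower with SKI-606. Only 4638 of the 12281 kept probes could be given a gene name. Cdh1, Ctnnb1, Tjp1, Ocln, Ptk2 and Vcl were among the list genes with no probe named here, so the lists do not cover them. By limma 0 of the 92 passed an adjusted p under 0.05 (smallest 0.113), and 14 had an unadjusted p under 0.05. That share of 15.2% stood beside 16.3% of all kept probes. The groups did not overlap for 4 of the 92 genes, Tns1, Arpc1b, Hax1 and Diaph2, or 4.35% against the 11.2% of all kept probes. Neither share, pooled over the 5 lists, exceeded that of all kept probes. The genes with an unadjusted p under 0.05 (limma) were unevenly spread. They were 8 of 30 branched actin genes, a share above that of all kept probes, and 3 of 19 focal adhesion genes. The Src list had 2 of 12, the other junctions 1 of 17 and the tight junctions 0 of 14. Of the 8 branched actin genes, Hax1 and Cttnbp2nl were lower and the rest higher. In that list the groups did not overlap for 2 higher genes and 1 lower gene of 30, a share not above the 11.2% of all kept probes. The spread between lists was not tested.

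**Figure D3:**
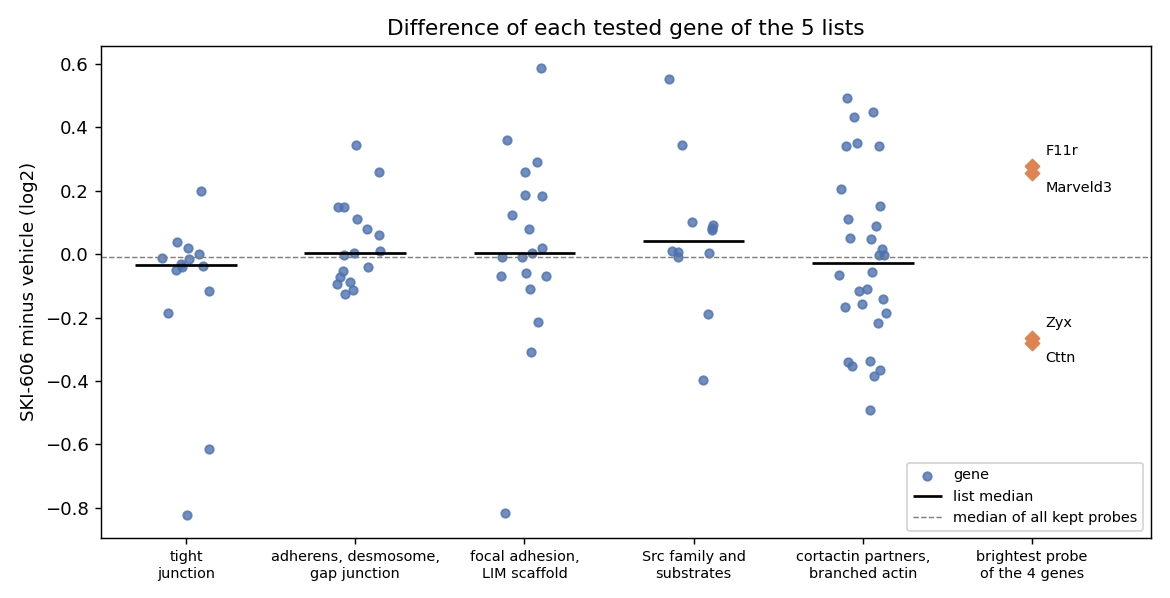
Difference between SKI-606 and vehicle (log2, vertical axis) of each tested gene in the 5 lists, with list medians (bars), the median of all kept probes (dashed) and the brightest probe of Cttn, Zyx, F11r and Marveld3 (diamonds). The list medians lie between -0.04 and 0.04, and single genes spread from -0.82 to 0.59.

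Of the tight junction genes that share a compartment with F11r and Marveld3, 14 of 58 were tested, and 4 were higher and 10 lower, with a median difference of -0.04 beside -0.01 for all kept probes. This balance was not stable: 7 were higher and 7 lower under median scaling, and 8 higher and 6 lower (median 0.0066) without vehicle replicate 4. The median was -0.0089 without SKI-606 replicate 2. None passed the threshold (limma). The claudin genes Cldn4 and Cldn2, which encode sealing and pore-forming strand proteins, had the lowest values, at -0.82 ± 0.47 (adjusted p = 0.450) and -0.61 ± 0.43 (adjusted p = 0.548). Cldn4 ran from 9.14 to 11.17 in SKI-606 and from 10.19 to 11.44 in vehicle tumours, so its spread within each group exceeded the difference. On the higher side stood the adhesion molecule Clmp at 0.20 ± 0.09 (adjusted p = 0.311) and the scaffold Magi3 at 0.02 ± 0.05 (adjusted p = 0.893). The F11r relative Jam2, named here after its value was seen, differed by -0.11 ± 0.17.

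Adherens junction, desmosome and gap junction genes had 17 of 51 tested, 9 higher and 8 lower, at a median of 0.0046, and 0 passed (limma). Median scaling gave 12 higher and 5 lower, and without SKI-606 replicate 2 there were 7 higher and 10 lower (median -0.03). Lima1 (EPLIN), which links the cadherin complex to actin, differed by 0.34 ± 0.13 (adjusted p = 0.248), with its other probe at 0.41, and SKI-606 replicate 1 lay within the vehicle range. The adhesion molecule Nectin2 differed by 0.26 ± 0.12 (adjusted p = 0.343), but by 0.01 on its other probe. The desmosomal cadherin gene Dsg2 stood at -0.07 ± 0.05 (adjusted p = 0.570) and the zonula adherens protein gene Plekha7 at -0.09 ± 0.10 (adjusted p = 0.706).

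Among focal adhesion and LIM scaffold genes, the compartment of zyxin, 19 of 65 were tested, 10 higher and 9 lower, at a median of 0.0042, and 0 passed (limma). Median scaling gave 14 higher and 5 lower. Leaving out SKI-606 replicate 2 put the median at 0.04. Tns1 (tensin), which ties integrins to actin, read 7.22, 7.18, 7.36 and 7.56 in SKI-606 replicates 1 to 4 and 6.54, 6.67, 6.70 and 7.06 in vehicle replicates 1 to 4. Its groups did not overlap, and the difference of 0.59 ± 0.13 had an adjusted p of 0.134. Tgfb1i1 (Hic-5), a LIM protein related to paxillin, differed by 0.36 ± 0.12 (adjusted p = 0.224). Enah, an Ena/VASP protein of the kind zyxin recruits, read -0.82 ± 0.33 on its brighter probe (adjusted p = 0.282) and -0.02 on its other one, and its relative Vasp, named after its value was seen, stood at -0.06 ± 0.05. The integrin-linked kinase gene Ilk differed by -0.22 ± 0.10 (adjusted p = 0.334).

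Of Src family kinases, their regulators and substrates, 12 of 42 were tested, 9 higher and 3 lower, at a median of 0.04, and 0 passed (limma). With array weights the median was -0.03, with 5 higher and 7 lower, and without SKI-606 replicate 2 it was 0.0093, with 6 higher and 6 lower. The probes of Src, Yes1, Abl1 and Abl2 fell short of the detection filter, which bears on these probes and not on the kinases. The membrane scaffold gene Cav1, a Src substrate, differed by 0.55 ± 0.21 (adjusted p = 0.264), from 9.22 to 10.22 with SKI-606 against 9.17 to 9.37 with vehicle, and SKI-606 replicate 3 lay inside the vehicle range. Stat3, a transcription factor that Src family kinases activate, differed by 0.35 ± 0.16 (adjusted p = 0.341) and by 0.34 on its other probe. Khdrbs1 (Sam68), an RNA-binding Src substrate, differed by -0.40 ± 0.17 (adjusted p = 0.303) and by -0.41 on its other probe, and the phosphatase gene Ptpn11 by -0.19 ± 0.12 (adjusted p = 0.502).

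The branched actin list, made of cortactin partners and actin regulators, had 30 of 76 genes tested, 13 higher and 17 lower, at a median of -0.03, and 0 passed (limma). Median scaling gave 16 higher and 14 lower. Arpc1b, a subunit of the Arp2/3 complex that cortactin stabilises, read 11.28, 11.22, 11.02 and 11.08 in SKI-606 replicates 1 to 4 and 10.77, 10.67, 10.61 and 10.83 in vehicle replicates 1 to 4. It was higher in all 4 SKI-606 tumours than in any vehicle tumour, at 0.43 ± 0.08 (adjusted p = 0.113), opposite in sign to Cttn. The subunits of this complex did not share a direction. Arpc3 differed by 0.34 ± 0.14, and Arpc4 and Arpc5 by -0.12 ± 0.06 and -0.35 ± 0.18, all named after their values were seen. The dynamin gene Dnm2, which encodes a membrane-severing GTPase that binds cortactin, differed by 0.45 ± 0.12 (adjusted p = 0.160), with SKI-606 replicate 2 just below vehicle replicate 4. Hax1, a cortactin-binding mitochondrial protein, read 9.73 to 9.89 with SKI-606 and 9.93 to 10.33 with vehicle, at -0.34 ± 0.09 (adjusted p = 0.161). Cttnbp2nl, named for its relation to a cortactin-binding protein, differed by -0.49 ± 0.20 (adjusted p = 0.278). With array weights Arpc1b, Dnm2 and Tns1 passed (limma adjusted p = 0.0379, 0.0487 and 0.0354), and no other gene of the 5 lists did. The weights were 0.44, 0.73, 0.39 and 2.1 for SKI-606 replicates 1 to 4, and 2.4, 1.3, 2.6 and 0.45 for vehicle. The SKI-606 values thus rested mostly on replicate 4, where Tns1 was highest, and the difference of Tns1 was 0.76. Under that setting 185 of all kept probes (1.51%) passed, 92 of them higher (0.749%).

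Among markers of the cell types that could carry these genes, the summed endothelial and fibroblast signals did not overlap between the groups, and those of the other tested lists did. No single marker passed the threshold (limma). Unadjusted p (limma) was under 0.05 for 5 of 6 endothelial and 4 of 8 fibroblast genes, against 16.3% of all kept probes. In other lists this held for 2 of 4 basal, 1 of 7 epithelial, 1 of 5 macrophage and 1 of 2 adipocyte genes. The groups did not overlap for 4 endothelial, 3 fibroblast, 2 basal and 1 epithelial genes, against 11.2% of all kept probes. The 6 tested endothelial markers were all higher with SKI-606, their summed normalized signal running from 1654 to 2353 against 1143 to 1446, and Pecam1 differed by 0.51 ± 0.16 (limma adjusted p = 0.197). The 8 fibroblast and matrix genes were likewise all higher, from 12950 to 16726 against 6727 to 10461. Of 7 epithelial markers 5 were lower and 2 higher, with sums of 11251 to 20481 against 17063 to 19854. In SKI-606 replicates 1 to 4 the list mean minus the vehicle mean was -0.62, 0.03, -0.29 and -0.48. The large differences in this list were those of Prom1 (-1.67 ± 0.40) and Cldn4 (-0.82 ± 0.47). Krt8, Krt18 and Spint1 differed by -0.09, -0.01 and -0.16, and Krt19 and Elf3 by 0.21 and 0.18. Prom1, Spint1, Krt19 and Elf3 are named after their values were seen. The endothelial mean lay 0.83, 0.61, 0.35 and 0.34 above the vehicle mean in SKI-606 replicates 1 to 4. F11r was highest in replicate 1 and lowest in replicate 2 of that group. The platelet markers Itga2b and Gp1bb, the leukocyte marker Ptprc and the endothelial marker Erg had probes that were not kept, Cd3e was the one lymphocyte marker tested, and Epcam, Cdh5 and Pf4 had no probe named here. The part of these markers in the values of F11r, Zyx, Cttn and Marveld3 was not tested.

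**Figure D4:**
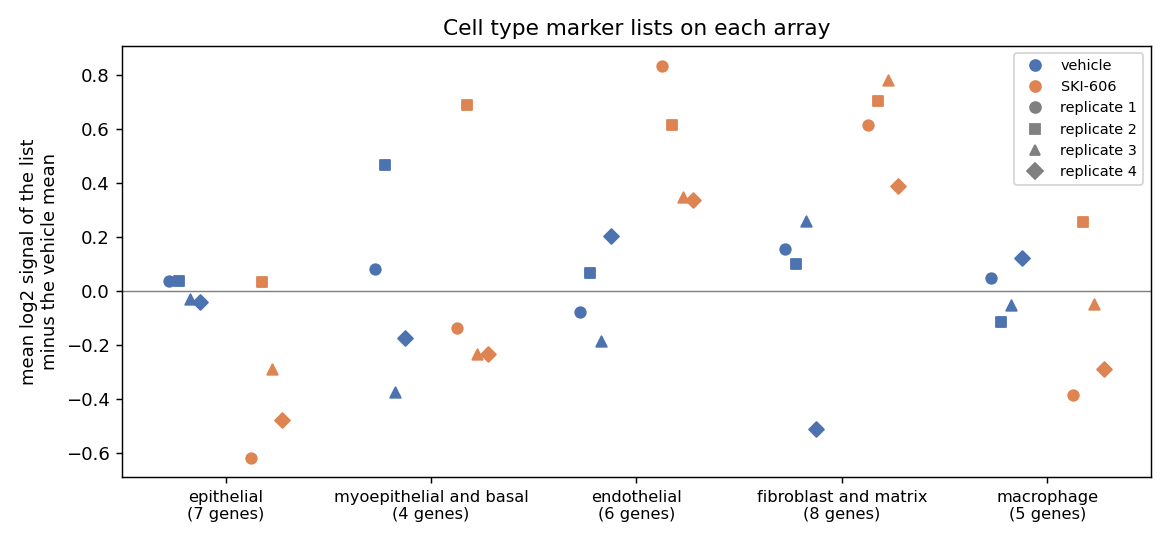
Mean log2 signal of the tested genes of 5 cell type marker lists on each array, minus the vehicle mean (vertical axis), by group (colour) and replicate (symbol). Endothelial values are higher in each SKI-606 tumour than in any vehicle tumour, as are fibroblast and matrix values, while SKI-606 replicate 1 has the lowest epithelial value.

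The genes whose signal followed each of the 4 genes most closely over the 8 arrays were found by Pearson's r among kept, named probes. The 8 points share group and normalization, so r is given as a description. Nearest to Cttn probe A were Kat2a (r = 0.964), a histone acetyltransferase, Camkmt (0.962), a calmodulin methyltransferase, and Btg1 (0.951), an antiproliferative factor. Nearest to Zyx were the glycolytic enzyme gene Tpi1 (0.991), Pdcd5 (0.980) and the lectin gene Mlec (0.976), and 67 of 4547 probes exceeded 0.9, against 14 for Cttn, 25 for Marveld3 and 9 for F11r. Nearest to F11r were the cochaperone gene Dnajc16 (0.988), the kinase scaffold gene Spag9 (0.945) and the proteasome adaptor gene Ecpas (0.922). Nearest to Marveld3 probe A were Hacd4 (0.966), of fatty acid elongation, the magnesium transport gene Cnnm2 (0.959) and the glutathione transferase gene Gstm1 (0.958). None of these 12 genes belonged to the 5 lists. The probes of Tpi1, Mlec, Camkmt and Hacd4 were dim, with group means from 6.09 to 6.49 where the lowest normalized value was 5.86. Signal near background limits their r.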

How the data were processed

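Illumina arrays measured RNA of 8 tumour samples. The authors deposited a table that holds, per the file headers, an average signal (an intensity, unnormalized by its header and its unequal array means) and a detection p-value for each probe. A second deposited table held intensity values on a linear scale whose columns shared the same quantiles, and served as an alternative. The array software is not given in the sources used here. Groups came from the titles; 1 vehicle title has no number and is called replicate 3.

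Signals went through neqc (background correction, then quantile normalization; limma 3.58.1, R 4.3.3; offset 16, negative controls inferred from detection p-values), after leaving out 4 bacterial control probes. The kept probes, detected (p under 0.05) on 4 or more arrays, were fitted by lmFit and eBayes on the log2 scale with group alone, with Benjamini-Hochberg adjustment across all 12281. The test was checked on simulated data with independent noise, where the planted differences were larger than those of the 4 genes. Identifiers were named through RefSeq gene IDs (GRCm38.p6, names only): 93.3% of 9490 padded numbers matched, against 48.7% after adding 1.

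The 4 genes, the lists and the tests were chosen with earlier results of these data known. Named were all probes of the 4 genes, from each list any gene past the threshold, otherwise per direction the 2 of smallest p, the 3 genes with the highest r to each of the 4 genes, and the markers Krt8, Krt18, Epcam, Pecam1, Cdh5, Pf4, Itga2b and Ptprc; predicted genes were not named. Other marker lists gave 2 adipocyte genes, both higher (median 1.15), 4 basal genes, 3 of them higher (0.23), and 5 macrophage genes, 4 of them lower (-0.18). Alternatives covered background, normalization, offset, filter, variance model, array weights, replicate block and each array left out.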

Additional observations from a re-analysis of the deposited data

Results flagged for a closer look

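In 5 of 70 sets of 4 arrays, 1 array lay far from the other 3 by Dixon's criterion, where chance gives about 1 in 20. Cttn probe B read 6.36 in SKI-606 replicate 2 and 6.23 to 6.25 in the other SKI-606 tumours. Cttn probe C read 6.50 in vehicle replicate 1 and 6.08 to 6.15 in the other vehicle tumours. The remaining 3 concerned vehicle replicate 2. There Marveld3 probe A was low at 9.69 (others 10.11 to 10.14), the luminal keratin gene Krt8 was low at 12.89 (others 13.12 to 13.15), and the mean of the adherens junction, desmosome and gap junction genes was high at 8.45 (others 8.05 to 8.10).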

How the results depend on the processing

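Of 133 member values under alternatives, 124 moved by less than the SD between replicates. Those that moved further were Cttn probes B and C: -0.40 and -0.39 with normexp and an offset of 50, -0.50 and -0.55 without background correction, -0.50 and -0.51 in the authors' values, and -0.10 and 0.062 with arrays scaled to the same median, where Marveld3 probe B was at 0.063. With 1 array left out, Cttn probe A ran from -0.33 to -0.22, probe B from -0.33 to -0.22, probe C from -0.23 to -0.09, Zyx from -0.31 to -0.23, F11r from 0.12 to 0.37, Marveld3 probe A from 0.15 to 0.39 and probe B from -0.20 to -0.03. The count of 1 called probe was 0 with median scaling, an offset of 50, the stricter filter, an intensity trend with robust prior, and the replicate block (which also takes the replicate 3 arrays out of the contrast), and 185 with array weights, 92 higher and 93 lower; it ran from 0 to 13 with 1 array left out, 7 without SKI-606 replicate 1 and 13 without replicate 2. Of 95 list counts of called genes 93 were 0; with array weights 2 branched actin genes and 1 focal adhesion gene passed. Of 95 list medians 87 moved by less than their spread. Median scaling put branched actin at 0.11, focal adhesion at 0.19 and Src genes at 0.13. Branched actin was at -0.11 with the stricter filter and -0.10 in the authors' values, and Src genes at -0.029 with array weights. With 1 array left out, the focal adhesion median ran from -0.0080 to 0.078. The cause of these shifts was not tested. Numbers 1, 2 and 4 are shared by both groups; their deviations correlated at 0.0044, 0.63 and -0.018, so only the replicate 2 arrays deviated together and the numbers were not taken as pairs. In the replicate block the replicate 3 arrays, in blocks of their own, carry no weight, so its values are those of numbers 1, 2 and 4, and the block and their loss cannot be told apart: Zyx was at -0.26, Cttn probe A at -0.36, F11r at 0.38 and Marveld3 probe A at 0.19. Cttn probes B and C were dim, and signal near background limits them.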
